A study of Mus musculus with 8 samples.

Results

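Glul, Oat, Axin2, Lgr5, Slc1a2, Rhbg, Tbx3, Rnf43, Znrf3 and Lect2 are genes that β-catenin drives in the hepatocytes around the central vein. Their rows were found by gene symbol in the deposited tables of mouse liver, where each of the 10 symbols had 1 transcript among the 55421 transcripts listed. All 10 passed the filter on low counts that left 14506 transcripts for testing. None of them passed an adjusted p of 0.05 by edgeR in any comparison. The smallest adjusted p was 0.0673 for time over both treatments, in Oat, and 0.721 for sudachitin at ZT18, in Slc1a2. An adjusted p also depends on how many transcripts changed, and 534 passed in that comparison of time, against 2 in that of sudachitin. At an unadjusted p under 0.05 there were 3 of 10 genes for time, against 20.4% of all tested transcripts. For sudachitin at ZT18 there was 1 of 10, against 6.51%.

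The livers came from 8 male C57BL/6J mice, all kept on a high-fat diet with 45% of calories from fat and killed at 30 weeks of age, so every value describes a fat-fed liver. The 4 groups of 2 mice were sudachitin at ZT18, control at ZT18, sudachitin at ZT6 and control at ZT6, where ZT counts the hours after lights on, so that ZT18 lies in the night and ZT6 in the day. Sudachitin, a polymethoxyflavone, was given at 100 mg per kg of body weight by gavage every other day between ZT8 and ZT10, and control mice received PBS. The mice carried no engineered allele that the labels name. Each library was 1 mouse, and the p-values measure the spread between 2 mice per group. The mouse codes in the sample titles, which the labels do not explain, start alike for both mice of each ZT6 group and differently for both mice of each ZT18 group. Whether the codes stand for shared cages or litters is not given, so such sharing and time of day cannot be told apart.

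Wnt ligands and R-spondins released by endothelial cells of the central vein keep β-catenin in nearby hepatocytes from being degraded. β-catenin then acts with TCF and LEF factors on genes that give the pericentral zone its functions, of which glutamine synthesis from residual ammonia is the best known. Some of the targets feed back on the pathway: AXIN2 belongs to the β-catenin destruction complex, RNF43 and ZNRF3 remove Wnt receptors from the cell surface, and LGR5 binds R-spondins and thereby counters RNF43 and ZNRF3.

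Promoters from RefSeq (build GRCm38.p6, 250 bases before to 50 after the start) were given for 6 of the 10 genes, as 7 sequences, since Rnf43 had a pair. The letters CTTTGA, the core of the TCF and LEF site, were searched on both strands, and 2 of the 7 sequences held them, against 16% of 32851 promoters of the same length. CTTTGAT, a longer form that contains CTTTGA, was in 2 of 7, against 3.73% of all promoters. CACGTG, the E-box letters bound by BMAL1 and CLOCK, were in 0 of 7, against 7.15% of all promoters. The 3 sequences below are shown because Oat and Lect2 had lower values at night in tests not adjusted for the number of genes, described further on, and because Lect2 and Slc1a2 hold the TCF letters. Rnf43 also had lower values at night in such a test, and its pair of sequences, with 0 matches, is not shown. Capitals mark a match, and ATCAAAG is CTTTGAT read on the other strand. The Lect2 match began 32 bases before the start, and the Slc1a2 matches began 207 and 77 bases before it. The RefSeq start of this Slc1a2 promoter lay 47779 bases into the counted transcript.
Oat, chr7:132576349-132576648, minus strand: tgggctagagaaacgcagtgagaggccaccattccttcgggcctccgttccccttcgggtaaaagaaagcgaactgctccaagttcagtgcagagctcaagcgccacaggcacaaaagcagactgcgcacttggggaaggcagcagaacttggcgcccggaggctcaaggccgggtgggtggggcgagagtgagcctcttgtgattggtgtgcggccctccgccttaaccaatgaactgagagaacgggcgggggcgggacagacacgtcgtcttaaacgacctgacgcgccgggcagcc
Lect2, chr13:56548489-56548788, minus strand: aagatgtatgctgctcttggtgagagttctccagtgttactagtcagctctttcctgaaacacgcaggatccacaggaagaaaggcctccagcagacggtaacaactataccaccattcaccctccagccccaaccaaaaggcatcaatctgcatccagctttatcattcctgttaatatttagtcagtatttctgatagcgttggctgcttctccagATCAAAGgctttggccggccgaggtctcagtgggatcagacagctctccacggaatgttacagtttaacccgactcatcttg
Slc1a2, chr2:102706188-102706487, plus strand: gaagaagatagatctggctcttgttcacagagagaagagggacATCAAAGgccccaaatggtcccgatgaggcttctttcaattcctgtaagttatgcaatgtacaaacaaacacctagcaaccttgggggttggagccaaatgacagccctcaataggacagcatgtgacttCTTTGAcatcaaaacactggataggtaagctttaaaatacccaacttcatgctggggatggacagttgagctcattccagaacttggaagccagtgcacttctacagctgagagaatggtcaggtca

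In genome build GRCm38 the 10 transcripts lie on 8 chromosomes, each matches a protein-coding transcript of GENCODE M21 at the same coordinates, and counts cover all of their exons. On the plus strand lie Glul (ENSMUST00000086199.11, chr1:153899944-153909723, 7 exons), Slc1a2 (ENSMUST00000080210.9, chr2:102658659-102790784, 11 exons) and Tbx3 (ENSMUST00000079719.10, chr5:119670669-119684561, 7 exons). Also on the plus strand, Rnf43 (ENSMUST00000165679.7, chr11:87663087-87735538, 10 exons) and Axin2 (ENSMUST00000052915.13, chr11:108920349-108950783, 11 exons) share chromosome 11. On the minus strand lie Oat (ENSMUST00000084500.7, chr7:132557478-132576398, 10 exons), Lgr5 (ENSMUST00000020350.14, chr10:115450311-115587780, 18 exons) and Rhbg (ENSMUST00000171887.3, chr3:88242874-88254709, 10 exons). The other two of that strand are Znrf3 (ENSMUST00000109867.7, chr11:5276324-5444847, 9 exons) and Lect2 (ENSMUST00000062806.5, chr13:56542464-56548502, 4 exons). Glul, Axin2 and Slc1a2 share 116, 207 and 189 exon bases with antisense models, whose counts were at most 4.5, 13 and 78 per library.

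Library depth was 13914116 to 17759630 counts in exons, and scaling factors lay between 0.966 and 1.016. Hepatocyte RNA dominated, with Alb, the serum albumin gene, at 13352 to 18252 FPKM, while Cd3e, a T-cell marker, was at 0.0319 to 0.142 FPKM. The central vein Wnt sources were near the limit of detection: Wnt2 was at 0.136 to 0.458 FPKM and Wnt9b at 0.0147 to 0.0856 FPKM, with 2.5 to 15 counts per library. The times of collection were checked with Nr1d1, a clock repressor, which had 4.86 and 7.52 CPM in sudachitin ZT18 livers and 4.91 and 5.13 CPM in control ZT18 livers, against 113 and 91.3 CPM in sudachitin ZT6 livers and 119.9 and 102 CPM in control ZT6 livers. One library stood apart. Control ZT18 replicate 1 held the highest or lowest value of the 8 libraries for 38.2% of tested transcripts, against 17.4% to 27.7% for the other libraries. It was lowest in 15 of 20 male-biased liver genes and highest in 5 of the 8 tested female-biased ones, of 17 listed. Sudachitin ZT6 replicate 2 was lowest in the other 5 male-biased genes. The summed level of the male-biased genes was 1953 FPKM in control ZT18 replicate 1 and 2592 FPKM in sudachitin ZT6 replicate 2, against 3685 to 6339 FPKM in the remaining libraries. The part of control ZT18 replicate 1 in the results was not tested beyond the values without it that are given beside them. In bulk liver, fewer pericentral hepatocytes and less RNA per pericentral hepatocyte cannot be told apart.

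Levels were compared between genes in FPKM, which divides by transcript length. Oat had the highest median over the 8 livers at 183.8 FPKM, then Glul at 170.1 FPKM and Lect2 at 70.2 FPKM. Slc1a2 followed at 6.03 FPKM, Tbx3 at 3.63 FPKM and Rnf43 at 1.96 FPKM. Rhbg had a median of 1.15 FPKM, Axin2 of 0.887 FPKM, Znrf3 of 0.726 FPKM and Lgr5 of 0.687 FPKM. Between neighbours in this order, the ranges over 8 livers were apart for Glul over Lect2 and for Lect2 over Slc1a2, and they overlapped for the other 7 pairs. Oat was above Glul in 4 of 8 livers. The enzymes and the secreted protein thus stood above the feedback regulators. The summed level of all 10 genes was 364 and 396 FPKM in sudachitin ZT18 livers and 490 and 356 FPKM in control ZT18 livers. It was 474 and 458 FPKM in sudachitin ZT6 livers and 466 and 494 FPKM in control ZT6 livers. The value of 490 FPKM belonged to control ZT18 replicate 1, the library that stood apart. Most of this sum comes from Oat, Glul and Lect2, so it says little about the other genes.

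**Figure D1:**
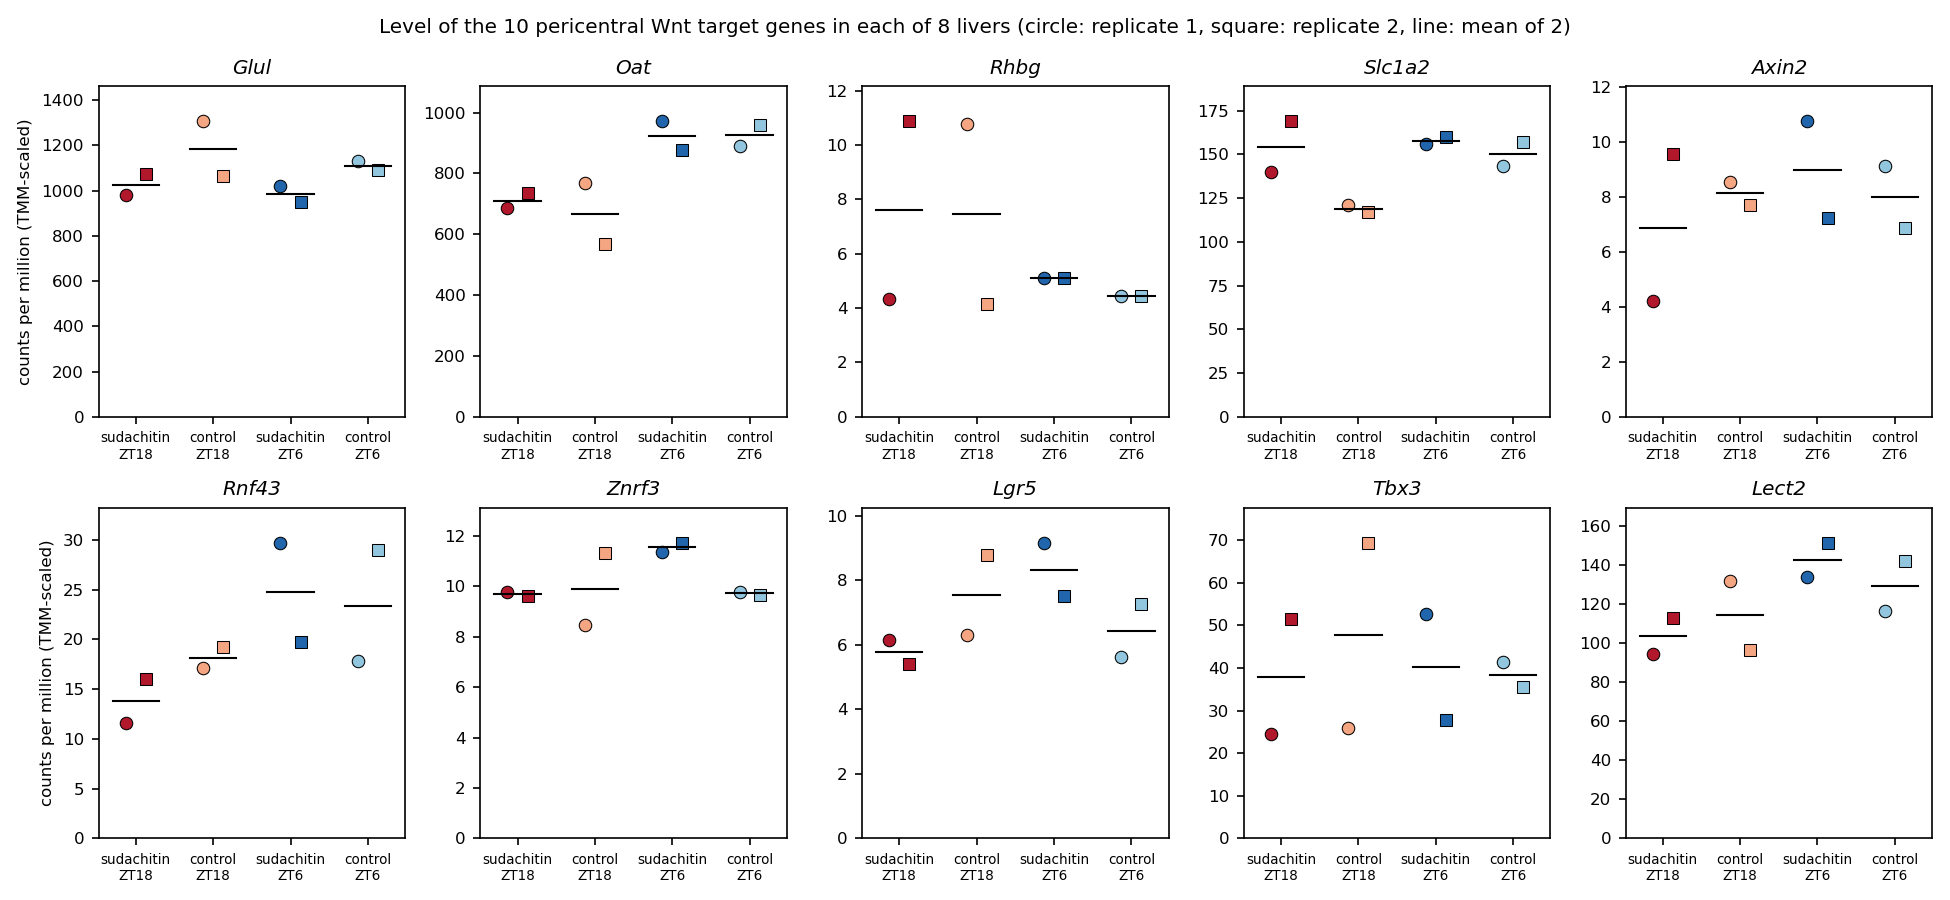
CPM (vertical axis, from 0) of each of the 10 genes in each of 8 livers, by group; circles are replicate 1, squares replicate 2 and lines the mean of the 2. Oat lies lower in the 4 ZT18 livers than in the 4 ZT6 livers. Rhbg splits between the 2 mice of a group at ZT18, and Tbx3 does so at ZT18 and in sudachitin ZT6 livers.

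Sudachitin and vehicle were compared first. No gene of the 10 passed at ZT6, at ZT18 or over both times by edgeR, where 0%, 0.0138% and 0.0207% of the 14506 tested transcripts were called. At an unadjusted p under 0.05 the counts were 0 of 10 at ZT6, 1 of 10 at ZT18 and 0 of 10 over both times, against 2.12%, 6.51% and 4.41% of all transcripts. DESeq2, and limma on log2(FPKM + 0.1), also called 0 of the 10 in each of these comparisons. The 10 genes had a median log2 change of 0.11 at ZT6, of -0.17 at ZT18 and of 0.00 over both times, against -0.01, 0.00 and 0.00 over all tested transcripts. These medians rested on single livers. Without sudachitin ZT18 replicate 1 the ZT18 median was 0.05, and it was -0.28 without sudachitin ZT18 replicate 2 and -0.11 without control ZT18 replicate 1. The ZT6 median was 0.01 without sudachitin ZT6 replicate 1, 0.21 without sudachitin ZT6 replicate 2 and 0.17 without control ZT6 replicate 2. With each of the 8 libraries left out in turn, the median over both times ran from -0.11 to 0.08. These comparisons share libraries with the comparisons of time.

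Slc1a2, which encodes a glutamate transporter of the cell membrane, was the gene with an unadjusted p under 0.05 at ZT18. It had 140.0 and 169 CPM in sudachitin ZT18 livers and 121 and 117 CPM in control ZT18 livers. It had 156 and 159.8 CPM in sudachitin ZT6 livers and 144 and 157 CPM in control ZT6 livers. The control ZT18 livers were the 2 lowest of the 8, and at ZT6 the groups overlapped. The log2 change of sudachitin over control at ZT18 was 0.38 (SE 0.13, 95% interval 0.08 to 0.67) with an adjusted p of 0.721, and it did not pass. Over both times it was 0.22 (SE 0.10, adjusted p = 0.996).

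Glul encodes glutamine synthetase, which fixes ammonia that escapes the urea cycle upstream in the lobule. It had 980.3 and 1073 CPM in sudachitin ZT18 livers, against 1305.5 and 1063 CPM in control ZT18 livers. It had 1022 and 948 CPM in sudachitin ZT6 livers, against 1130 and 1089 CPM in control ZT6 livers. The ZT6 groups did not overlap and the ZT18 groups did, with the control ZT18 liver that stood apart as the highest. The log2 change over both times was -0.19 (SE 0.09, 95% interval -0.40 to 0.02, adjusted p = 0.996), so the interval holds 0 and excludes a fold below 0.759. Oat, Lect2 and Lgr5 each had a log2 change of sudachitin over control within 0.05 of 0 over both times, with 95% intervals of -0.20 to 0.29 for Oat, -0.29 to 0.29 for Lect2 and -0.45 to 0.44 for Lgr5. The intervals were wider for Rnf43, with a log2 change of -0.15 (95% interval -0.60 to 0.30), and for Rhbg, with 0.10 (95% interval -0.65 to 0.85).

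At ZT6 the sudachitin and control libraries did not overlap for 4 of the 10 genes, Lgr5, Rhbg and Znrf3 being higher and Glul lower with sudachitin, and 31.7% of all tested transcripts were equally separated. At ZT18 there were 3 such genes, Slc1a2 higher and Lgr5 and Rnf43 lower, against 30.8% of all transcripts. As shares of 10 genes both lie near that background. Over both times 0 of the 10 were separated, against 1.83% of all transcripts.

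**Figure D2:**
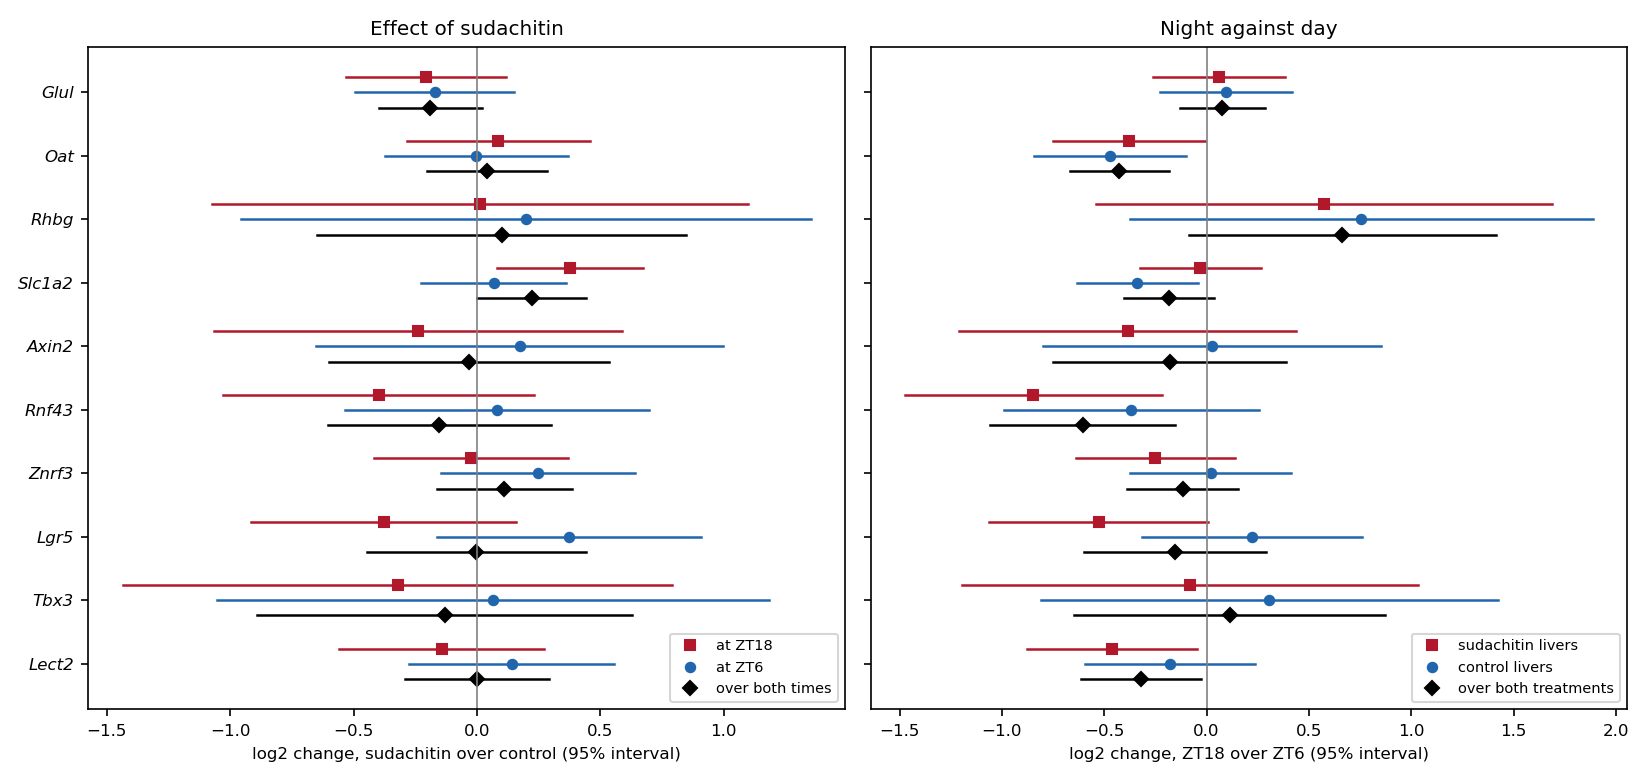
Log2 change of each gene with its 95% interval; the left panel has sudachitin over control at ZT18 (red squares), at ZT6 (blue circles) and over both times (black diamonds), the right panel ZT18 over ZT6 in sudachitin livers, in control livers and over both treatments. Most intervals cross 0; those of Oat for ZT18 over ZT6 lie below 0, with the interval over both treatments running from -0.67 to -0.18.

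Night was compared with day next. Over both treatments, 0 of the 10 genes passed by edgeR, while 534 transcripts or 3.68% of those tested did, 270 higher and 264 lower at ZT18. Oat, Rnf43 and Lect2 had an unadjusted p under 0.05, which makes 3 of 10, against 20.4% of all transcripts. DESeq2 called 2 of the 10, Oat and Rnf43, and limma called 0. Of the 10 genes 3 had a log2 change above 0 and 7 below, where 52.7% of all transcripts were above 0, and the median was -0.17, against 0.02 over all transcripts. It shrank to -0.07 without sudachitin ZT6 replicate 1, and leaving out sudachitin ZT18 replicate 1 gave -0.10.

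Oat encodes ornithine aminotransferase, which links ornithine to glutamate in pericentral cells. It had 685 and 734 CPM in sudachitin ZT18 livers, against 971 and 877 CPM in sudachitin ZT6 livers. It had 769 and 567 CPM in control ZT18 livers, against 890.1 and 961 CPM in control ZT6 livers. Every ZT18 liver lay below every ZT6 liver, a separation that 13% of all tested transcripts also showed, 7.02% in this direction. The log2 change was -0.43 over both treatments (SE 0.11, 95% interval -0.67 to -0.18), -0.38 (SE 0.16) in sudachitin livers and -0.47 (SE 0.16) in control livers. The adjusted p over both treatments was 0.0673, above the threshold of 0.05, and it was 0.0174 without control ZT18 replicate 1, where the log2 change was -0.52. It was 0.0068 with DESeq2.

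Rnf43, the receptor-removing ubiquitin ligase, had 11.6 and 16.0 CPM in sudachitin ZT18 livers, against 29.7 and 19.8 CPM in sudachitin ZT6 livers. It had 17.1 and 19.2 CPM in control ZT18 livers, against 17.8 and 29.0 CPM in control ZT6 livers. The times did not overlap with sudachitin and did overlap in control livers. The log2 change over both treatments was -0.61 (SE 0.20, adjusted p = 0.133), and within sudachitin livers it was -0.85 (SE 0.28, adjusted p = 0.267). The difference between the changes in sudachitin and control livers was tested and was -0.48 (95% interval -1.36 to 0.40, adjusted p = 0.998).

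Lect2 encodes a secreted liver protein first known as a neutrophil attractant. It had 94.6 and 113 CPM in sudachitin ZT18 livers, against 134 and 152 CPM in sudachitin ZT6 livers. It had 132 and 96.8 CPM in control ZT18 livers, against 117 and 142 CPM in control ZT6 livers. The log2 change over both treatments was -0.32 (SE 0.13, 95% interval -0.61 to -0.03, adjusted p = 0.209). Without control ZT18 replicate 1 it was -0.46 with an adjusted p of 0.0344, and that liver was the higher of its pair.

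Rhbg encodes a membrane channel for ammonia. It had 4.33 and 10.9 CPM in sudachitin ZT18 livers and 10.8 and 4.15 CPM in control ZT18 livers. It had 5.10 and 5.11 CPM in sudachitin ZT6 livers and 4.46 and 4.44 CPM in control ZT6 livers. A pair of ZT18 livers, 1 of each treatment, stood above the other 6, which lay within 4.15 and 5.11 CPM. Behind these were 184.5 and 192.5 counts (exact Poisson 95% intervals 159 to 214 and 167 to 222, for counting error only), against 59 to 82.5 counts in the other livers. Gm38392, a same-strand gene model that shares 1190 of the 1927 exon bases of Rhbg, had 147.5 and 155.5 counts in the same 2 livers and 51 to 69 in the others, so the division of reads between the 2 models is uncertain. The log2 change over both treatments was 0.66 (SE 0.33, adjusted p = 0.299).

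Glul and Slc1a2 had smaller changes with time over both treatments than Oat, Rnf43, Lect2 and Rhbg. Their log2 changes over both treatments were 0.08 (SE 0.09, 95% interval -0.13 to 0.29) for Glul and -0.18 (SE 0.10, 95% interval -0.41 to 0.04) for Slc1a2, with adjusted p of 0.688 and 0.329. Slc1a2 was lower at ZT18 in control livers, where the groups did not overlap, with a log2 change of -0.34 (SE 0.13, unadjusted p = 0.0294, adjusted p = 0.33). In sudachitin livers it was -0.03 (SE 0.13). The difference between these 2 changes was 0.31 (95% interval -0.11 to 0.73, adjusted p = 0.998).

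The remaining regulators were measured on fewer counts. Axin2 had 4.21 and 9.57 CPM in sudachitin ZT18 livers and 8.54 and 7.73 CPM in control ZT18 livers, and 10.8 and 7.23 CPM in sudachitin ZT6 livers and 9.14 and 6.86 CPM in control ZT6 livers. One liver, sudachitin ZT18 replicate 1, lay below the other 7, on 71 counts (exact Poisson 95% interval 55.5 to 89.6). Its log2 changes were -0.03 (SE 0.25, adjusted p = 0.999) for sudachitin over both times and -0.18 (SE 0.25, adjusted p = 0.739) for time over both treatments. Znrf3, partner of Rnf43, had 9.78 and 9.63 CPM in sudachitin ZT18 livers and 8.48 and 11.3 CPM in control ZT18 livers, and 11.4 and 11.7 CPM in sudachitin ZT6 livers and 9.79 and 9.67 CPM in control ZT6 livers. Its log2 changes were 0.11 (SE 0.12, 95% interval -0.16 to 0.38, adjusted p = 0.996) for sudachitin and -0.12 (SE 0.12, 95% interval -0.39 to 0.15, adjusted p = 0.63) for time. Lgr5, the R-spondin receptor, had 6.16 and 5.40 CPM in sudachitin ZT18 livers and 6.31 and 8.78 CPM in control ZT18 livers, and 9.16 and 7.5 CPM in sudachitin ZT6 livers and 5.61 and 7.25 CPM in control ZT6 livers. Sudachitin livers were therefore higher at ZT6 and lower at ZT18 than control livers for Lgr5, on 77.5 to 149 counts per library. Its interaction of treatment and time was -0.75 on the log2 scale (SE 0.33, 95% interval -1.51 to 0.01, unadjusted p = 0.052, adjusted p = 0.998).

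Tbx3 encodes a T-box repressor of transcription. It had 24.5 and 51.5 CPM in sudachitin ZT18 livers and 25.9 and 69.3 CPM in control ZT18 livers, and 52.6 and 27.7 CPM in sudachitin ZT6 livers and 41.3 and 35.6 CPM in control ZT6 livers. The groups overlapped in each comparison of treatment and of time. Its log2 changes were -0.13 (SE 0.34, adjusted p = 0.996) for sudachitin over both times and 0.11 (SE 0.34, adjusted p = 0.886) for time over both treatments. An antisense model, Tbx3os1, overlaps 115 exon bases and had 29 to 119.5 counts. The libraries carry no strand information, so reads of these shared bases cannot be told apart.

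Across the 10 genes, ZT18 and ZT6 livers did not overlap for 5 in sudachitin mice, each lower at ZT18 (Oat, Lgr5, Rnf43, Znrf3 and Lect2), against 45.9% of all tested transcripts in either direction and 22.3% lower. In control mice 2 genes, Oat and Slc1a2, were so separated and lower, against 42.4% of all transcripts in either direction and 21.1% lower. In sudachitin livers 0 of 10 passed by edgeR (0.186% of transcripts called), with 3 at an unadjusted p under 0.05 against 12.6% of all transcripts. In control livers 0 of 10 passed (0.524% called), with 2 at an unadjusted p under 0.05 against 12.9% of all. DESeq2 and limma on log2(FPKM + 0.1) called 0 of 10 within either treatment. The median log2 change of the 10 was -0.32 in sudachitin livers and 0.02 in control livers, against 0.01 and 0.02 over all transcripts. With single livers left out, the sudachitin median was -0.19 without sudachitin ZT6 replicate 1 and -0.09 without sudachitin ZT18 replicate 1. The control median was -0.09 without control ZT18 replicate 1, -0.11 without control ZT18 replicate 2 and 0.01 without control ZT6 replicate 2. The interaction of treatment and time passed for 0 of 10, as for 0% of transcripts, with 0 of 10 at an unadjusted p under 0.05 against 3.78% of all. DESeq2 and limma on log2(FPKM + 0.1) also called 0 of 10 for the interaction. The 10 interaction terms had a median of -0.28, against 0.00 over all transcripts, and 2 were above 0 and 8 below, where 49.5% of all transcripts were above 0. One liver carried this: without sudachitin ZT18 replicate 1 the median was 0.03 and 4 of the 10 terms changed sign. It was -0.54 without sudachitin ZT18 replicate 2, -0.13 without sudachitin ZT6 replicate 1 and -0.18 without control ZT6 replicate 1.

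**Figure D3:**
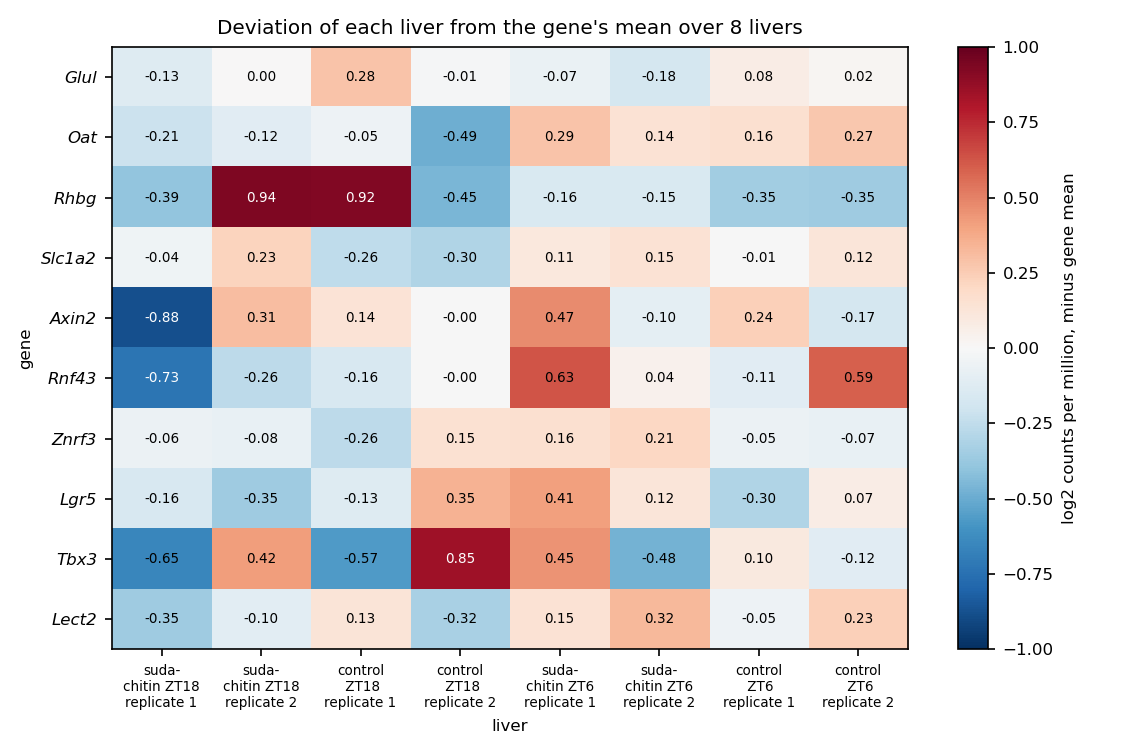
Log2 CPM of each gene (rows) in each liver (columns) minus the gene's mean over 8 livers, coloured from blue (below the mean) to red (above it). Oat is below its mean in the 4 ZT18 livers and above it in the 4 ZT6 livers; Rhbg is high in sudachitin ZT18 replicate 2 and control ZT18 replicate 1.

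The genes differed in how far the 2 mice of a group lay apart. Within groups, the SD of log2 CPM, with a prior count of 2, was 0.71 for Tbx3, above 95.9% of tested transcripts, and 0.66 for Rhbg, above 94.8%. It was 0.48 for Axin2 and 0.37 for Rnf43, against a median of 0.20 over all tested transcripts. Glul had 0.12 and Slc1a2 0.11, above 22.1% and 16.3% of transcripts. The highest of the 8 values fell in sudachitin ZT6 replicate 1 for 4 of the 10 genes, against 10.2% of all tested transcripts, and the lowest in sudachitin ZT18 replicate 1 for 4 of them, against 11.9%.

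The tested genes whose log2 CPM ran closest to Glul over the 8 libraries, among 8928 with a mean of at least 5 CPM, were Got2 (Pearson r = 0.966), Zdhhc4 (r = 0.965) and Pigq (r = 0.965). For Axin2 they were Ammecr1l (r = 0.958), Specc1l (r = 0.948) and Umps (r = 0.912). These are descriptions over 8 libraries that share groups and depth, and they are the highest of 8928 correlations per gene.

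The rest of the pathway was read from lists of its parts. With sudachitin over both times, 0 of the 65 tested genes of 6 Wnt lists (ligands, receptors, secreted inhibitors, destruction complex, TCF and LEF factors, and common targets) passed by edgeR, by DESeq2 or by limma on log2(FPKM + 0.1). Of the 65, 7 had an unadjusted p under 0.05 by edgeR, against 4.41% of all transcripts. With time over both treatments 4 of the 65 passed by edgeR, against 3.68% of all transcripts.

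Among ligands and R-spondins, 9 of 13 were tested, 2 rose at ZT18 and 7 did not pass. Wnt5a, a ligand best known for signalling without β-catenin, had 2.61 and 2.58 CPM in sudachitin ZT18 livers and 3.18 and 3.65 CPM in control ZT18 livers. It had 1.11 and 1.5 CPM in sudachitin ZT6 livers and 1.30 and 1.44 CPM in control ZT6 livers. These values rest on 17.5 to 57 counts per library. At 0.0713 to 0.230 FPKM, Wnt5a was near the limit of detection, as Wnt2 was. The times did not overlap, and the log2 change was 1.16 (SE 0.19, adjusted p = 0.0158). Wnt5b, its close relative, rose with a log2 change of 0.96 (SE 0.22, adjusted p = 0.0476). Rspo3, the R-spondin of the central vein, had a log2 change of -0.05 (adjusted p = 0.891).

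Of 11 tested receptors, Fzd4, a Frizzled receptor, rose at ZT18 by 0.54 on the log2 scale (SE 0.12, adjusted p = 0.0463) and 10 did not pass. Of 4 tested secreted inhibitors, Notum fell and 3 did not pass. Notum, which encodes an enzyme that removes the lipid from Wnt proteins and is itself a β-catenin target, had 21.0 and 26.8 CPM in sudachitin ZT18 livers, against 40.4 and 33.2 CPM in sudachitin ZT6 livers. It had 19.6 and 23.0 CPM in control ZT18 livers, against 27.6 and 38.9 CPM in control ZT6 livers. Every ZT18 value lay below every ZT6 value, with a log2 change of -0.63 (SE 0.13, adjusted p = 0.0373). Antisense models overlap 622 of its exon bases, of which Notumos had 97 to 223 counts, so this change may hold reads of either strand. These calls rest on few mice: leaving out each of the 8 libraries in turn, the call held in 5 of 8 settings for Wnt5a, 1 of 8 for Wnt5b, 0 of 8 for Fzd4 and 3 of 8 for Notum. The call of Wnt5a was lost without sudachitin ZT6 replicate 1, control ZT6 replicate 1 or control ZT6 replicate 2, and that of Wnt5b held without control ZT18 replicate 2. That of Notum held without sudachitin ZT18 replicate 2, control ZT18 replicate 1 or control ZT6 replicate 1. Of 8 other alternatives, the calls of Wnt5b and Fzd4 were each lost in 4.

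The intracellular machinery was read in the same comparison of time. Of 18 tested genes of the destruction complex and its transducers 0 passed for time, and of 15 TCF, LEF and cofactor genes 0 passed, with median log2 changes of 0.04 and 0.17, which ran from -0.01 to 0.05 and from 0.05 to 0.17 with single libraries left out. At an unadjusted p under 0.05 there were 1 and 3, against 20.4% of all transcripts, and DESeq2 and limma on log2(FPKM + 0.1) called 0 in both lists. Ctnnb1, which encodes β-catenin, was at 21.3 to 26.9 FPKM and had a log2 change of -0.10 (adjusted p = 0.561). Of 8 other common targets 0 passed by edgeR, with 4 at an unadjusted p under 0.05 against the same 20.4% of all transcripts. Of these 8, 5 had a log2 change above 0 and 3 below, with a median of 0.36, which was 0.21 without sudachitin ZT6 replicate 1 and 0.09 without control ZT18 replicate 1. DESeq2 called 2 of them, Sp5 lower and Myc higher, and limma called 0. Sp5, a transcription factor induced by Wnt signals, had 1.48 and 3.29 CPM in sudachitin ZT18 livers and 1.95 and 1.41 CPM in control ZT18 livers, against 5.53 and 3.55 CPM in sudachitin ZT6 livers and 3.60 and 3.86 CPM in control ZT6 livers. Its log2 change was -1.03 (SE 0.27, adjusted p = 0.0739). Sox9, a transcription factor that also marks bile duct cells, had 7.70 and 8.28 CPM in sudachitin ZT18 livers and 7.76 and 9.56 CPM in control ZT18 livers, against 6.33 and 4.09 CPM in sudachitin ZT6 livers and 6.26 and 5.82 CPM in control ZT6 livers. Every ZT18 value lay above every ZT6 value, as for 13% of all transcripts in either direction, and the log2 change was 0.56 (SE 0.16, adjusted p = 0.0855). Of 6 tested bile duct markers, Sox9 among them, 5 had a log2 change above 0 at ZT18, where 52.7% of all transcripts were. Their median was 0.51, which ran from 0.41 to 0.61 with single libraries left out. By edgeR, DESeq2 or limma 0 passed, and 2 had an unadjusted p under 0.05 by edgeR, against 20.4% of all transcripts. The summed level of the 8 listed markers was 25.5 and 13.8 FPKM in sudachitin ZT18 livers and 37.0 and 20.6 FPKM in control ZT18 livers. The ZT6 livers ran from 13.5 to 20.2 FPKM, a range that holds sudachitin ZT18 replicate 2. Spp1 alone had 16.2 and 7.04 FPKM in sudachitin ZT18 livers and 22.9 and 10.4 FPKM in control ZT18 livers. The sum therefore says little about the other markers. The part of these markers in the value of Sox9 was not tested.

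Of 24 other pericentral hepatocyte genes, all tested, 2 rose at ZT18, 2 fell and 20 did not pass, against 3.68% of all transcripts called, and the median was -0.11, or -0.25 without control ZT18 replicate 1 and -0.07 without either sudachitin ZT18 replicate 2 or control ZT18 replicate 2. Cyp7a1, the rate-limiting enzyme of bile acid synthesis from cholesterol, rose by 2.0 on the log2 scale (SE 0.32, adjusted p = 0.0124), with 142 and 120.4 CPM in sudachitin ZT18 livers and 49.6 and 106 CPM in control ZT18 livers, against 32.8 and 21.7 CPM in sudachitin ZT6 livers and 33.2 and 14.0 CPM in control ZT6 livers. Nr1i3, the xenobiotic receptor CAR, rose by 0.58 (SE 0.11, adjusted p = 0.0227). It overlaps 936 exon bases of the antisense gene Tomm40l, which had 1592 to 4865 counts, and the reads of the 2 genes cannot be told apart. Akr1c6, a hydroxysteroid dehydrogenase, fell by 0.55 (adjusted p = 0.0229) and Cldn2, a tight junction claudin, fell by 0.56 (adjusted p = 0.0438). Cyp2e1, a cytochrome P450 of the same zone, had a log2 change of -0.19 (adjusted p = 0.422).

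Of 27 periportal genes, which mark the opposite end of the lobule, 2 rose at ZT18, 2 fell and 23 did not pass, against the same 3.68% of all transcripts, with a median of 0.08. That median ran from 0.02, without sudachitin ZT18 replicate 1 or control ZT18 replicate 2, to 0.17, without control ZT18 replicate 1. Asl, an enzyme of the urea cycle, rose by 0.85 (adjusted p = 0.0237), and G6pc, the last enzyme of glucose release, by 1.11 (adjusted p = 0.0374). Hal, the histidine-degrading lyase, fell by 0.52 (adjusted p = 0.0356), and Slc7a2, a transporter of cationic amino acids, fell by 0.62 (adjusted p = 0.0444). The pericentral and periportal lists were not tested against each other. Of 29 tested genes of ammonia and urea handling Asl rose, Slc7a2 fell and 27 did not pass, against 3.68% of all transcripts called. With single libraries left out, the calls held in 7 of 8 settings for Cyp7a1, in 3 of 8 for Nr1i3 and Akr1c6, in 2 of 8 for Asl, G6pc and Slc7a2, and in 1 of 8 for Cldn2 and Hal. That of Cyp7a1 was lost without sudachitin ZT6 replicate 1 (adjusted p = 0.052). For each of the other 7 genes, leaving out control ZT18 replicate 1 was among the settings in which the call held.

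**Figure D4:**
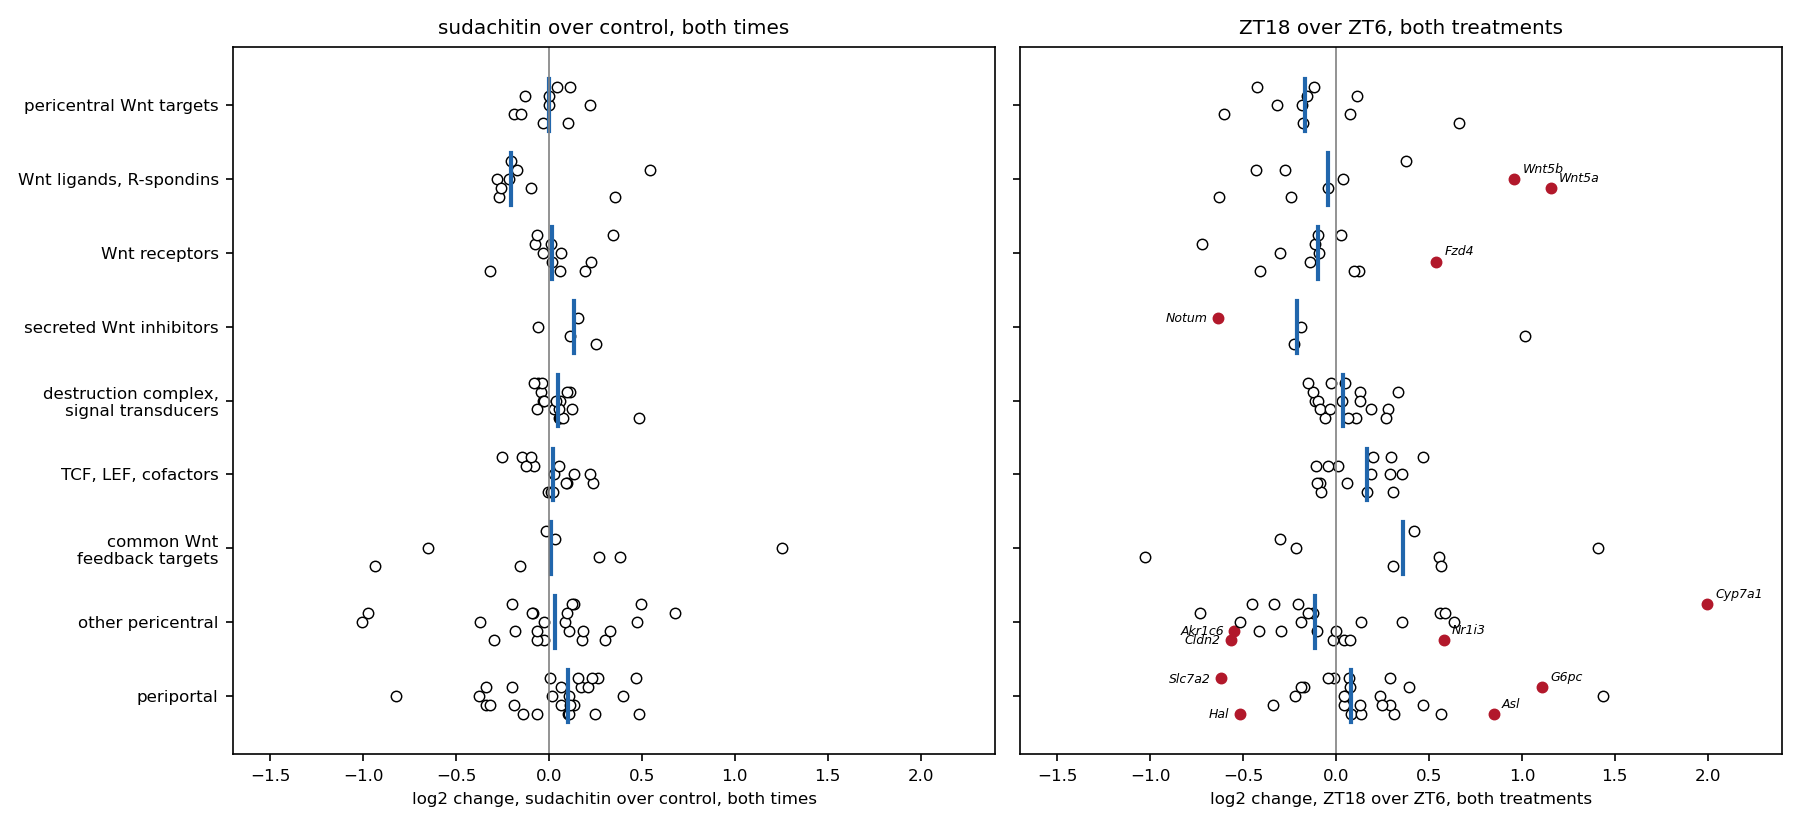
Log2 change of each tested gene (points) by list, with sudachitin over control on the left and ZT18 over ZT6 on the right; blue bars are list medians, and filled red points passed an adjusted p of 0.05. No point passes on the left. On the right the medians are -0.17 for the 10 pericentral Wnt targets, -0.11 for other pericentral genes and 0.08 for periportal genes.

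Markers of the cells that send or could dilute these signals were also measured. Of 8 central vein endothelial markers, 0 passed for time by edgeR, DESeq2 or limma, with 2 at an unadjusted p under 0.05 against 20.4% of all transcripts, and their summed level was 2.0 to 2.83 FPKM in sudachitin ZT18 livers and 2.27 to 2.55 FPKM in control ZT18 livers, against 2.52 to 2.91 FPKM in sudachitin ZT6 livers and 2.95 to 2.96 FPKM in control ZT6 livers. Of 15 Kupffer cell and macrophage markers 0 passed with sudachitin at ZT6 by edgeR, DESeq2 or limma, with 4 at an unadjusted p under 0.05 by edgeR against 2.12% of all transcripts. Their log2 changes at ZT6 were above 0 for 13 of 15, where 48.8% of all transcripts were, with a median of 0.58. Their summed level was 61.8 and 98.0 FPKM in sudachitin ZT6 livers, against 49.2 and 56.5 FPKM in control ZT6 livers. Without sudachitin ZT6 replicate 2, the highest of these livers, 11 of 15 were above 0 and the median was 0.25. At ZT18 the changes were above 0 for 6 of 15, with a median of -0.04, which was 0.53 without control ZT18 replicate 1 and -0.41 without control ZT18 replicate 2, and -0.16 and 0.05 without sudachitin ZT18 replicate 1 and replicate 2, and the summed level was 65.5 and 54.5 FPKM in sudachitin ZT18 livers, against 83.6 and 43.6 FPKM in control ZT18 livers. With sudachitin over both times, other marker lists also leaned to 1 side, though 0 of their genes passed by edgeR. Log2 changes were below 0 for 9 of 11 stellate cell markers (median -0.32) and 7 of 8 sinusoidal endothelial markers (median -0.15). They were above 0 for 11 of 15 Kupffer cell markers (median 0.26) and 3 of 8 central vein markers (median -0.10). Of all transcripts, 49.7% were above 0. The part of these cell types in the values of the 10 genes was not tested.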

How the data were processed

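Polyadenylated RNA of 8 livers was sequenced without strand information as 150-base pairs, per the labels' protocols. The submitters' processing notes name Trimmomatic 0.39, STAR 2.7.2a and HOMER (version not given) and the build mm10. The authors deposited 2 tables. In the first, the authors give estimated counts over exons, raw and in steps of 0.5 as the values show. The other holds FPKM, which divides the deposited count by exon length and by the library total in the file headers. How strand was treated in counting is not given, and such libraries cannot separate reads of overlapping antisense models.

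Counts were rounded to whole numbers, 0.5 upwards, and tested with edgeR 4.0.16 in R 4.3.3: TMM factors, the default filter by group with a minimum count of 10, and the quasi-likelihood F test on all 8 libraries. Benjamini-Hochberg adjustment ran over 14506 transcripts, and the threshold was 0.05. Comparisons within a time or a treatment, and the interaction, came from a fit of 4 group means; those over both levels came from an additive fit. The SE is the log2 change divided by the square root of F. CPM is TMM-scaled. The sample titles gave groups and replicate numbers. Between the 2 mice of a group the variance was 16.5 to 57.0 times that of sampling noise (chi-square per degree of freedom). This value pools tested transcripts and does not describe the 10 genes alone.

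The 10 genes, the other lists and the tests were chosen with earlier results of these data known. One gene of the lists is not reported here, and the counts and medians leave it out. Besides the 10, the text names up to 4 genes of a list that passed in a comparison, or otherwise the 2 with the smallest p (lists given only by counts and medians go without named genes), and the 3 genes most like Glul and Axin2; Nr1d1, Alb, Cd3e, Wnt2, Wnt9b, Rspo3, Ctnnb1 and Cyp2e1 are checks of level, and Myc was named after its values were seen. Alternatives were DESeq2 1.42.0, limma 3.58.1 on log2(FPKM + 0.1) and log2(FPKM + 1), other scaling, no filter or a filter of 5 CPM in 2 libraries, only the groups compared, a replicate block and each library left out. Promoters are from RefSeq.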

Additional observations from a re-analysis of the deposited data

How the results depend on the processing

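The number of the 10 genes called was 0 in each comparison and stayed 0 in 112 of 116 combinations of comparison and alternative. For ZT18 against ZT6 over both treatments it was 2 with DESeq2 (Oat and Rnf43, adjusted p 0.0457 for Rnf43), 3 without a filter on low counts (Oat, Rhbg and Rnf43) and 0 to 2 with single libraries left out, the 2 being Oat and Lect2 without control ZT18 replicate 1. For ZT18 against ZT6 in sudachitin livers it was 1 without a filter (Rnf43, log2 change -0.85, adjusted p = 0.00026). The causes were not tested. Of 1160 single-gene values under an alternative, 81 had the opposite sign to the value reported, none of them called. Over all alternatives the log2 change at ZT18 over both treatments was -0.52 to -0.33 for Oat (adjusted p 0.0174 to 0.177 with libraries left out), -0.78 to -0.42 for Rnf43, -0.46 to -0.24 for Lect2 and 0.30 to 0.90 for Rhbg. Over all transcripts, that comparison called 534, 164 to 1048 with single libraries left out, and 392 to 1629 otherwise. The alternatives for genes outside the 10 were added after seeing the data.

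Replicate numbers did not pair the mice: the correlation of same-numbered deviations was -0.20 to 0.28 over pairs of groups. With the replicate block 0 of the 10 genes were called in any comparison, Oat had an adjusted p of 0.0816, and 461 transcripts were called for time over both treatments. Lgr5, Axin2, Rhbg and Znrf3 had under 200 counts per library, and the part of counting error in their spread was not tested.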
